A study of Mus musculus with 8 samples.

Results

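Whole mouse aorta was compared with cultured wild-type aortic smooth muscle cells, to show how RNA levels in the intact vessel differ from those in culture. The comparison used 3 of the 8 arrays of the series, namely 1 array of freshly isolated wild-type aorta (Aorta_Wildtype) and 2 arrays of wild-type cells at passage 3 that had received an empty adenovirus (AorticSMC_Wildtype_AdEmpty). The cells had been exposed to the virus at a multiplicity of infection of 100 for 3 days, and they had been grown in serum. The labels repeat the same growth and virus text on the aorta sample, although they call it freshly isolated and give it no passage, so whether the aorta was exposed to virus was not settled by them. The arrays were chosen by their labels alone. The other 5 arrays, from Srf knockout cells with empty adenovirus (2), wild-type cells with Myocd adenovirus (2) and liver (1), appear only where their values stand beside this comparison. The labels give no animal age or strain, do not say whether the aorta came from 1 animal or a pool, and do not say whether the 2 cultures were separate, so the spread behind every p-value is that of these samples and could be technical only.

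The aortic wall holds smooth muscle in its media, an endothelial lining, and an adventitia with fibroblasts, nerves and immune cells, often with fat attached. Smooth muscle cells in the vessel contract and rarely divide. In serum-fed culture they commonly lose contractile proteins and take on a growing, matrix-secreting state, a shift known as phenotypic modulation. In whole tissue, fewer cells of a type and less RNA per cell cannot be told apart.

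The array design covers long non-coding RNAs of the mouse together with mRNAs. A level here is the log2 processed intensity of a probe minus the 75th percentile of its array, so 0 is a fairly bright probe and each unit is a doubling. Levels are compared between arrays for the same probe, never between probes. The 75th percentile was 371 in aorta against 506 and 466 in the wild-type cells, and 68.9% of probes in aorta were well above background, against 71.6% and 68.3%. Only 15 probes carried a RefSeq accession, and all 15 accessions matched a mouse gene symbol. Each of these probes was printed at 20 spots, and the SD over its usable spots on the aorta array was 0.028 to 0.26, an error within that array. No marker of smooth muscle, endothelium, fibroblasts, fat or blood was among the 15 genes, so the labelled tissue and cells were not checked against such markers.

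Aorta stood much further from either culture than the cultures stood from each other. Among probes well above background on both arrays of a pair, 103 of 40649 (0.253%) were at least 4-fold apart between the 2 wild-type cultures. Between aorta and wild-type replicate 1 this was 7076 of 38836 probes (18.2%), and between aorta and replicate 2 it was 6295 of 38080 (16.5%). Pearson's r across probes was 0.990 between the cultures and 0.850 and 0.865 between aorta and each culture. These correlations are across probes of single arrays, which are not independent replicates, and describe these arrays only.

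Over all probes, 26528 of 44926 tested (59%) differed between aorta and wild-type cells at a Benjamini-Hochberg adjusted p under 0.05 in limma. Aorta was the higher side for 14343 (31.9%) and the lower side for 12185 (27.1%). The direction of this balance depended on the scaling, since calls higher in aorta made up 54.1% with the 75th percentile and 47.0% with quantile normalization. They made up 43.4% with the authors' log2 values, where a smaller set of 42309 probes was tested. By size, 8487 of 44970 probes (18.9%) were at least 4-fold apart, 4777 (10.6%) higher and 3710 (8.25%) lower in aorta, and 8411 of them were also called by limma. The single aorta array has no spread of its own, so limma took the spread from the 3 cultured groups and the aorta array was assumed to vary like them. Aorta lay on slide 2 and the wild-type cells on slide 1, so slide and tissue cannot be told apart.

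**Figure D1:**
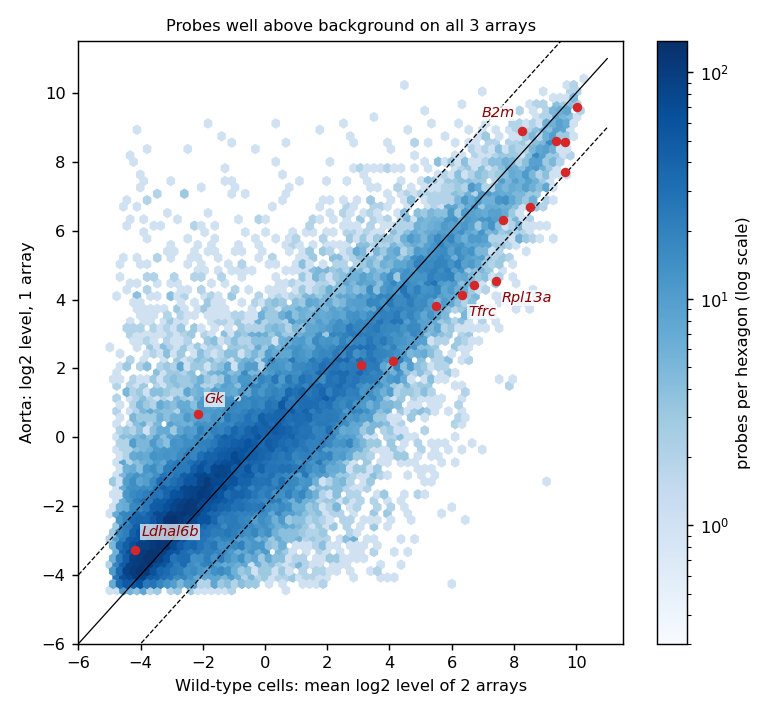
Level of each probe in aorta (vertical axis, 1 array) against its mean level in wild-type cells (horizontal axis, 2 arrays), both in log2 units relative to the 75th percentile of the array, for probes well above background on all 3 arrays. Shading counts probes per hexagon on a log scale, the solid line marks equal levels, the dashed lines mark a 4-fold difference, and red points are the 15 identified genes, of which Gk lies above the upper dashed line and Rpl13a, Nono and Tfrc below the lower one.

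Many probes were detected on one side only. There were 2688 probes well above background in aorta and on neither wild-type array. Of these, 1155 were at least 4-fold higher in aorta once wild-type values below the lowest detectable level of their array were raised to it. Conversely, 3027 probes were well above background on both wild-type arrays and not in aorta, and 491 of these were at least 4-fold lower in aorta. The highest such bounds were at least 21401-fold for aorta and at least 447-fold for the cells. Among probes detected on the aorta array and on at least 1 wild-type array, 3622 were at least 4-fold higher and 3219 at least 4-fold lower in aorta. Probes of the first 2 kinds were tested because they were bright in 1 group, so their direction was largely set by that choice.

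Probes without an accession carry only the maker's identifier, which the files do not pair with a gene. Those named here and in the next paragraph each had 1 usable spot on the aorta array. Among probes without an accession measured on all 3 arrays, ASMM10P040651 showed the largest excess in aorta. Its level was 8.93 there against -4.13 and -3.96 in the wild-type cells. Its log2 difference was 12.97 (SE 0.22, limma adjusted p = 1.46e-05), an 8041-fold ratio, and it was 11.25 with normexp background correction. Liver stood at -2.32 and all 6 cultures at or below -3.45, so this probe was bright in aorta alone among the 8 arrays. ASMM10P012606 followed, at 8.11 in aorta against -4.57 and -4.10 in wild-type cells, a log2 difference of 12.44 (SE 0.30, limma adjusted p = 1.46e-05) that was 10.64 with normexp. That probe was also bright in liver, at 6.79, and stood at 0.10 and -0.09 in the Srf knockout cells.

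In the other direction, ASMM10P013071 stood at 8.88 and 9.27 in wild-type cells and at -1.32 in aorta, a log2 difference of -10.40 (SE 0.22, limma adjusted p = 1.46e-05). It was bright in all 6 cultures, from 7.52 to 9.27, and at -3.39 in liver. ASMM10P049796 stood at 5.57 and 6.41 in wild-type cells and at -4.19 in aorta, a log2 difference of -10.18 (SE 0.35, limma adjusted p = 1.95e-05) that was -8.24 with normexp. The second probe lay between 5.44 and 6.45 in the 6 cultures and at -1.37 in liver, so both probes were bright in every culture and far lower in both tissues.

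The 15 identified genes are mostly housekeeping and metabolic genes that are common references for expression work. Of these, 13 passed the test, 2 as higher and 11 as lower in aorta, beside 59% of all tested probes. Their median log2 difference was -1.35, beside 0.17 over all tested probes. For 15 of 15 the aorta value lay outside the pair of wild-type values, as it did for 89.3% of the probes well above background on all 3 arrays. For 15 of 15 it also lay outside the range of all 6 cultures, as it did for 70% of those probes. Levels of the 15 genes are means over up to 20 spots. Nearly all other probes had 1 spot, with 61200 spots for 60915 probes outside controls, so these shares do not come from like measurements. The direction of each gene's difference was the same under all 14 alternatives run for it. The 15 probes had been placed on the array by its maker, and the genes were described here with earlier results of these data known.

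**Figure D2:**
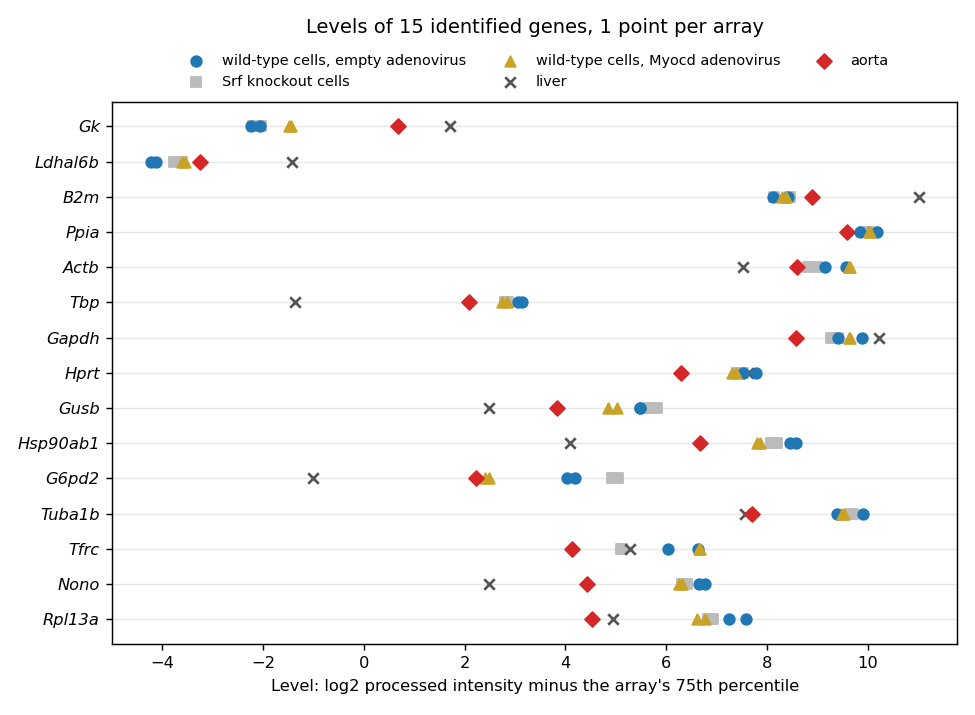
Levels of the 15 identified genes on each of the 8 arrays, 1 point per array, in log2 processed intensity minus the 75th percentile of the array. Genes are ordered by the difference between aorta (red diamonds) and wild-type cells (blue circles), with Gk at the top, at 0.68 against -2.24 and -2.06, and Rpl13a at the bottom, at 4.54 against 7.25 and 7.58.

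Among cytoskeletal genes, Tuba1b, which encodes an alpha-tubulin of the microtubules, was lower in aorta. Its level was 7.71 in aorta and 9.39 and 9.91 in the wild-type cells. The log2 difference was -1.94 (SE 0.25, limma adjusted p = 0.00122), which is 3.83-fold lower in aorta, and it passed in all 14 alternatives. All 6 cultures lay between 9.39 and 9.91, with no overlap with aorta, while liver stood beside aorta at 7.55.

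Actb encodes cytoplasmic beta-actin, an abundant filament protein whose gene is a known target of serum response factor. Its level was 8.60 in aorta and 9.16 and 9.56 in the wild-type cells. The log2 difference was -0.76 (SE 0.23, limma adjusted p = 0.0303), which is 1.69-fold lower in aorta. Actb is the least secure of the calls, since it passed in only 5 of 14 alternatives, and its limma adjusted p ranged from 0.00591 to 0.118. It did not pass with quantile normalization, at -0.35 (limma adjusted p = 0.0714), or when wild-type replicate 2 was left out, at -0.55 (limma adjusted p = 0.0513). It was also lost without any single array of the Srf knockout or Myocd groups, which here give only the spread (limma adjusted p = 0.0561 to 0.0576). The Srf knockout cells, at 8.99 and 8.81, lay nearer to aorta than the wild-type cells did.

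Tfrc, the transferrin receptor that takes up iron and is abundant in dividing cells, stood at 4.13 in aorta against 6.04 and 6.62 in wild-type cells. The log2 difference was -2.20 (SE 0.26, limma adjusted p = 0.000951), which is 4.58-fold lower in aorta. The 2 wild-type arrays were 0.58 apart, less than the gap of either to aorta. Srf knockout cells, at 5.12 and 5.11, lay between aorta and wild-type cells, and the Myocd cells, at 6.68 and 6.64, lay with the upper wild-type value.

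B2m encodes beta-2-microglobulin, the small subunit of the MHC class I complexes that present peptides. It had a level of 8.90 in aorta and 8.13 and 8.42 in wild-type cells. The log2 difference was 0.62 (SE 0.22, limma adjusted p = 0.0542), and it did not pass. It passed in 5 of 14 alternatives, among them quantile normalization, where it was 1.07 (limma adjusted p = 0.00209), and the fit that left out wild-type replicate 2, at 0.77 (limma adjusted p = 0.0363). Liver stood higher, at 11.02.

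Gk, the X-linked gene for glycerol kinase, which phosphorylates the glycerol released from fat, had the largest excess in aorta among the 15 genes. Its level was 0.68 in aorta and -2.24 and -2.06 in wild-type cells. The log2 difference was 2.83 (SE 0.18, limma adjusted p = 0.000112), a 7.11-fold ratio, and it passed in all 14 alternatives with differences from 2.24 to 2.92. The 6 cultures lay between -2.24 and -1.44 and liver, a tissue known for high glycerol kinase, at 1.71. The Myocd arrays, on the slide of aorta, had a mean of -1.47, and aorta was 2.15 above it.

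Ldhal6b, a lactate dehydrogenase-like gene known mainly from testis, was also higher in aorta but was dim on every array. Its level was -3.26 in aorta and -4.13 and -4.23 in wild-type cells, a log2 difference of 0.92 (SE 0.18, limma adjusted p = 0.00585). It was lost in the fit of only the 3 arrays compared (limma adjusted p = 0.0543). The difference was 0.52 with normexp background correction and 0.42 with quantile normalization (limma adjusted p = 0.0457). Aorta was only 0.31 above the mean of the Myocd arrays, on the slide of aorta, and 0.42 above that of the Srf knockout arrays.

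The remaining metabolic genes were lower in aorta. Gapdh, a glycolytic enzyme, stood at 8.58 in aorta and 9.41 and 9.88 in wild-type cells, a log2 difference of -1.07 (SE 0.24, limma adjusted p = 0.0107). G6pd2, a retrocopy of the X-linked gene for glucose-6-phosphate dehydrogenase, stood at 2.22 in aorta and 4.19 and 4.03 in wild-type cells, a log2 difference of -1.89 (SE 0.18, limma adjusted p = 0.000387). Gusb, the lysosomal beta-glucuronidase, stood at 3.82 in aorta and 5.49 and 5.47 in wild-type cells, a log2 difference of -1.66 (SE 0.18, limma adjusted p = 0.000689). All 3 lay below both cultures. Hprt, which salvages purines, stood at 6.30 in aorta and 7.53 and 7.78 in wild-type cells, a log2 difference of -1.35 (SE 0.19, limma adjusted p = 0.00174). The G6pd2 level in aorta was close to that of the Myocd cells on the same slide, at 2.49 and 2.40, and far from the Srf knockout cells, at 5.04 and 4.93. G6pd2 shares sequence with its parent gene, and Gapdh, Actb, Ppia and Rpl13a have processed copies in the genome, so the transcript measured by each of these probes is uncertain.

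Of the 5 remaining genes, Rpl13a, Nono, Hsp90ab1 and Tbp were lower in aorta and Ppia did not pass the test. Rpl13a, a protein of the large ribosomal subunit, had the largest fall of the 15 genes, at 4.54 in aorta and 7.25 and 7.58 in wild-type cells. Its log2 difference was -2.88 (SE 0.21, limma adjusted p = 0.000169), which is 7.36-fold lower in aorta, and the 6 cultures lay between 6.62 and 7.58. Nono, an RNA-binding protein of nuclear paraspeckles, stood at 4.42 in aorta and 6.64 and 6.76 in wild-type cells, a log2 difference of -2.28 (SE 0.17, limma adjusted p = 0.000181). Neither gene overlapped with any culture.

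Hsp90ab1, a constitutive cytosolic chaperone, stood at 6.68 in aorta and 8.58 and 8.45 in wild-type cells, a log2 difference of -1.84 (SE 0.17, limma adjusted p = 0.000396). Tbp, the TATA-binding protein of the basal transcription machinery, stood at 2.09 in aorta and 3.14 and 3.06 in wild-type cells, a log2 difference of -1.01 (SE 0.17, limma adjusted p = 0.00327). Both passed in all 14 alternatives. Ppia, the cyclophilin A gene, had a level of 9.59 in aorta and 9.85 and 10.18 in wild-type cells, a log2 difference of -0.42 (SE 0.20, limma adjusted p = 0.122), and did not pass. It passed with normexp, at -0.50 (limma adjusted p = 0.0271), and when wild-type replicate 1 was left out, at -0.59 (limma adjusted p = 0.0322).

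**Figure D3:**
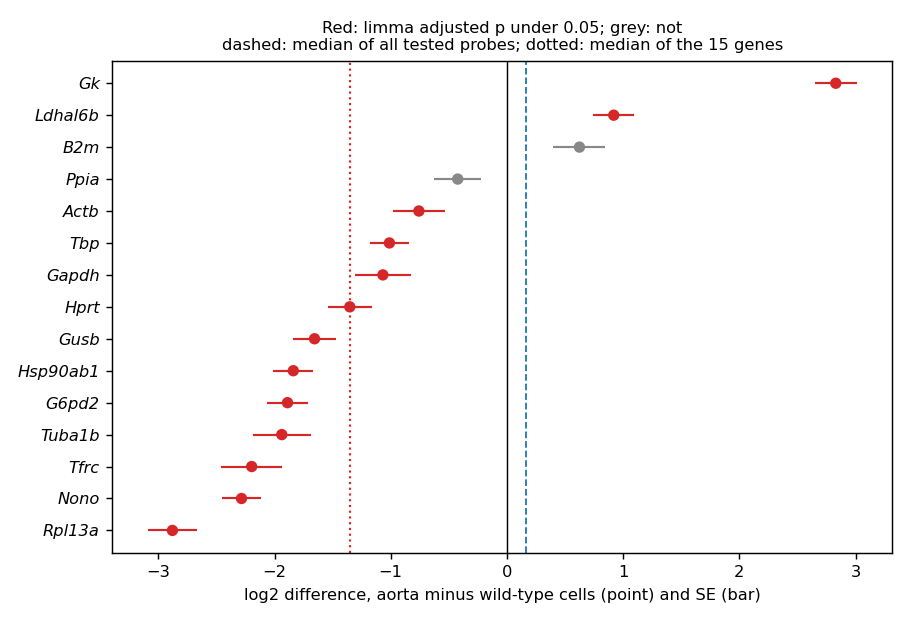
Log2 difference between aorta and wild-type cells (points) with limma's standard error (bars) for the 15 identified genes. Red genes passed at an adjusted p under 0.05 and the grey genes B2m and Ppia did not; the dashed line marks the median of all tested probes, 0.17, and the dotted line the median of the 15 genes, -1.35.

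The genes did not move by a common amount. The differences ran from -2.88 for Rpl13a to 2.83 for Gk, and genes often used as interchangeable references, such as Ppia at -0.42 and Rpl13a at -2.88, were far apart within the same aorta array. The Myocd cells lay on the slide of aorta. Against the mean of the 2 Myocd arrays, aorta stood at -2.16 for Rpl13a, -1.87 for Nono, -2.53 for Tfrc, -1.79 for Tuba1b, -1.16 for Hsp90ab1, -1.11 for Gusb and -0.23 for G6pd2. All of these were smaller in size than those against wild-type cells, except that for Tfrc, which was larger. Gk (2.15), Ldhal6b (0.31), B2m (0.56), Hprt (-1.05) and Tbp (-0.70) were also smaller in size against the Myocd cells. Actb (-1.03) and Ppia (-0.45) were larger, and Gapdh was nearly equal, at -1.06. The Srf knockout cells lay on slide 1, that of the wild-type cells. Against their mean, aorta stood at -2.34 for Rpl13a, -1.95 for Nono, -0.98 for Tfrc and -1.46 for Hsp90ab1. Gusb (-1.92), Tuba1b (-1.96) and G6pd2 (-2.76) were larger in size there than against wild-type cells, and the other identified genes were smaller. The part of slide in these values was not tested. These comparisons share the aorta array, so their values stand side by side only.

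The promoters of Gk and Rpl13a are shown because these genes had the largest difference in each direction. Each runs from 250 bases before to 50 bases after the annotated start in RefSeq on GRCm38.p6, printed 5′ to 3′ on the gene's strand, with GC boxes (GGGCGG on either strand) in capitals. Gk lies on the minus strand at chrX:85776770-85777069 and Rpl13a on the minus strand at chr7:45128696-45128995.
Gk: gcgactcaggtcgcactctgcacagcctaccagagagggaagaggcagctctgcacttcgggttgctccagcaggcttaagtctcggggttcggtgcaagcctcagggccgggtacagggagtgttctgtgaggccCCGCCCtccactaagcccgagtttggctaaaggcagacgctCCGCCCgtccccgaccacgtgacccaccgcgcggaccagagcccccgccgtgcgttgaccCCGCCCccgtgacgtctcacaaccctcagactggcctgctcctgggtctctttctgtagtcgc
Rpl13a: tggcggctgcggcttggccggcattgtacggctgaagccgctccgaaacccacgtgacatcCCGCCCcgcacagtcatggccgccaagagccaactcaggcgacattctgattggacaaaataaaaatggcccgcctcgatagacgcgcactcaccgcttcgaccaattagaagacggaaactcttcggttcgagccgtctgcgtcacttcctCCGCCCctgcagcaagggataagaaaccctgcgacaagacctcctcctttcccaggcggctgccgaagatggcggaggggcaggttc
Gk held 3 GC boxes and Rpl13a held 2. Promoters were at hand for 13 of the 15 genes, not for Actb and Hsp90ab1. A GC box was found for 7 of these 13 genes, in 7 of their 14 promoters. Of all 32851 promoters of this length, 35.7% held a GC box. The CArG box, the motif bound by serum response factor, was found for 0 of these 13 genes, in 0 of their 14 promoters. These genes leave out Actb, and 1.63% of all promoters held the motif. A match is a run of letters in this window, not a site shown to be bound.

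RNA quality was read from control spots that probe both ends of the transcripts of Gapdh and of Pgk1, another glycolytic enzyme gene. For Pgk1, the 3′ probe stood at 6.64 in aorta and 8.52 and 8.60 in wild-type cells, and the 5′ probe at 2.06 in aorta and 5.40 and 5.02 in wild-type cells. The log2 difference from the wild-type mean was thus -1.92 for the 3′ probe and -3.15 for the 5′ probe, and the 5′ minus 3′ difference, compared between arrays for the same pair of probes, was -4.58 in aorta against -3.92 to -3.10 on the 6 cultured arrays. For Gapdh, the 3′ probe stood at 7.80 in aorta and 9.01 and 9.58 in wild-type cells, and the 5′ probe at 8.16 in aorta and 9.54 and 9.87 in wild-type cells. The 5′ minus 3′ difference for Gapdh in aorta, 0.37, lay within the cultured range of 0.29 to 0.64. The control spots made for the human and rat sequences also gave signal, and in 3 such pairs the 5′ minus 3′ difference in aorta lay below that of all 6 cultures. It was -3.45 in aorta against -2.52 to -1.71 for human Gapdh, 2.80 against 3.75 to 4.13 for rat Gapdh, and -5.35 against -4.48 to -3.60 for human Pgk1. Mouse Gapdh was thus the only one of these 5 pairs in which aorta lay within the cultured range. All 5 pairs are made for Gapdh or Pgk1 and were read on 1 aorta array, so they are not independent of each other. The rat Pgk1 pair was not used, since only 2 of 10 spots of its 3′ probe were well above background in aorta. In liver, 0 of 10 spots of the mouse Pgk1 5′ probe were well above background, so its 5′ minus 3′ difference is not measured there. The Gapdh pairs were measured in liver, with differences of -1.88 for mouse, -9.19 for human and -4.20 for rat Gapdh. Each of these lay below aorta and below all 6 cultures. The position of the other probes within their transcripts was not used here, and the part that RNA quality has in the differences above was not tested.

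**Figure D4:**
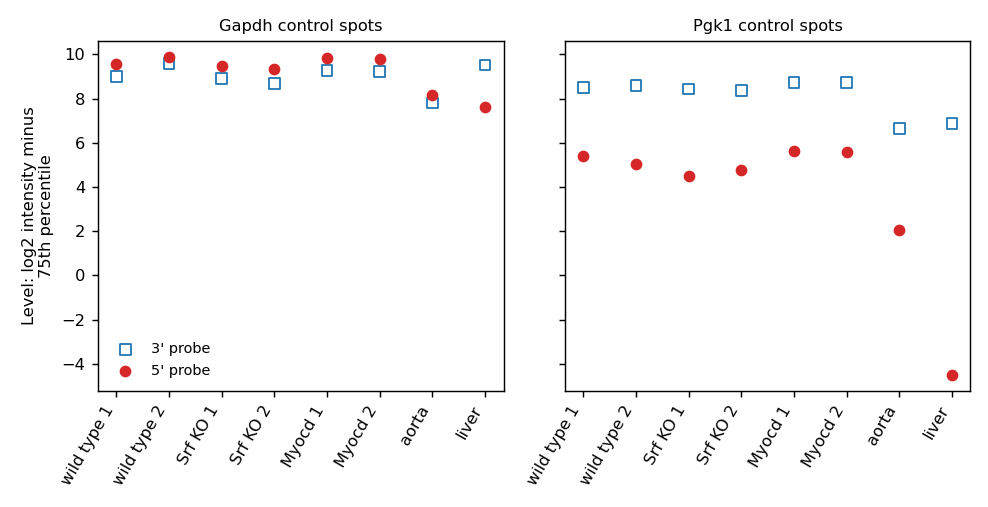
Levels of the mouse Gapdh (left) and Pgk1 (right) control probes on each of the 8 arrays, in log2 intensity minus the 75th percentile of the array, as the median of 10 spots per probe. Red circles are 5′ probes and open blue squares 3′ probes; the 5′ minus 3′ difference for Pgk1 is -4.58 in aorta and -3.12 and -3.58 in wild-type cells, and the Pgk1 5′ point of liver is not well above background.

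The size and sign of a difference moved with the brightness of the probe. Tested probes were split into 10 equal bins by their mean level over all 8 arrays, from bin 1, the dimmest, to bin 10, the brightest. The median log2 difference was 0.43 in bin 2, -0.39 in bin 8, -0.58 in bin 9 and -0.56 in bin 10. Bin 10 held 11 of the 15 identified genes. In bin 10, 12.9% of probes were called higher and 45.6% lower in aorta, and in bin 2 these shares were 31.6% and 13.0%. With quantile normalization the medians of these 4 bins were flatter, at -0.07, -0.28, -0.31 and -0.18, and the median of the 15 genes was -0.97. Bin 1 stood at 1.69, with 56.2% of its probes called higher and 11.7% lower in aorta. How many of its probes were tested only because they were bright in 1 group was not counted.

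**Figure D5:**
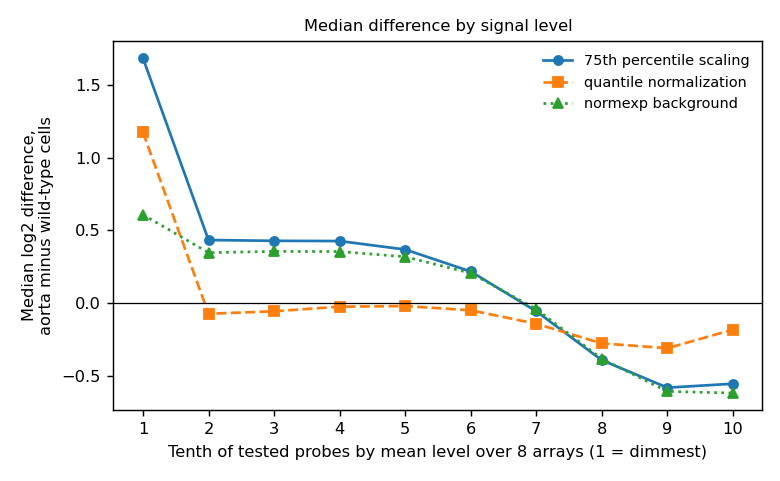
Median log2 difference between aorta and wild-type cells (vertical axis) in 10 equal bins of the tested probes by mean level over 8 arrays (horizontal axis, 1 is dimmest), under 3 ways of processing. With 75th percentile scaling the median falls from 0.43 in bin 2 to -0.56 in bin 10, and with quantile normalization from -0.07 to -0.18.

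The probes at least 4-fold apart and called by limma were followed on the arrays that had not been used to choose their direction. The 4709 probes higher in aorta had a median level of 0.098 in aorta and -3.62 and -3.60 in wild-type cells. Their medians were -3.30 and -3.30 in the Myocd cells, -2.75 and -2.84 in the Srf knockout cells, and -0.91 in liver. The 3702 probes lower in aorta had a median of -1.58 in aorta and 1.67 and 1.45 in wild-type cells. On the other arrays their medians were 1.22 and 1.24 with Myocd, 0.80 and 1.02 in the knockout, and -2.92 in liver. In both sets the Myocd cells, which share the slide of aorta, stood on the side of the cultures. Liver, also on that slide, stood on the side of aorta. These medians describe sets that were chosen on aorta and wild-type values, and carry no test. For human and rat Gapdh, the control-probe difference read for RNA quality lay below all cultures in both tissues. For mouse Gapdh it did so in liver only. The dim control spots E1A_r60_a97 stood at -5.69 in liver and -6.59 in aorta, above -7.34 and -7.13 in the wild-type cells. The part of RNA quality, signal floor and slide in these medians was not tested.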

How the data were processed

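The processed intensity of each spot came from Agilent Feature Extraction 11.0.1.1, per the file headers. A second deposited file holds log2 values of 42995 probes, and the sources used here do not give its normalization; its columns have the same highest value, medians of 7.27, 7.27, 7.27, 7.27, 7.27, 7.27, 7.21 and 7.16, and follow the scanner values in the same direction (Pearson's r 0.997 or more), and none of the 15 identified genes is in it. Control spots, negative probes and outliers were removed, and log2 values were averaged over the spots of each probe. Testing required a signal well above background in aorta or on both wild-type arrays. Means were compared with limma 3.58.1 (lmFit, eBayes; R 4.3.3; two-sided) over aorta and the 6 cultured arrays, with 3 residual degrees of freedom, and the fit was tested on simulated data. No spot was saturated, and the number of arrays limits the precision. The named probes are all with a gene symbol and the 2 largest differences per direction among called probes measured on all 3 arrays. The members and lists were chosen with earlier results of these data known. Of 15 gene lists, 13 had no identified member, glycolysis had 1 (Gapdh) and reference genes had 14, so no list is described beyond the 15 genes. The files hold no mean signal, so normexp used median signals.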

Additional observations from a re-analysis of the deposited data

Results flagged for a closer look

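One set of control spots, which no comparison used, was bright in aorta alone. The 35 spots named E1A_r60_a107, after an early adenovirus gene whose transcripts Agilent uses as spike-in controls, had a median processed intensity of 364 in aorta. In the wild-type cells it was 3.14 and 3.38, and in liver 3.44. In the Srf knockout cells it was 3.42 and 3.43, and in the Myocd cells 3.96 and 3.92. All 35 spots were well above background in aorta, against 1 and 0 in the wild-type cells and 1 in liver. Of other spots named for this gene, E1A_r60_a97 and E1A_r60_a135 had 0 of 35 well above background in aorta. E1A_r60_a22 had 35 there against 34 and 35 in the wild-type cells, and E1A_r60_3 had 33 against 28 and 13. The labels repeat the virus text of the cultures on both tissue samples. No cause was tested.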

How the results depend on the processing

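The count of limma calls stayed between 21724 (only the 3 arrays compared) and 28845 (normexp) over all alternatives run, against 26528, and between 23915 and 28045 when any single cultured array was left out. Without either wild-type array, counts at least 4-fold apart were 8184 and 9059, against 8487. The 4-fold count fell to 4976 with normexp (2540 higher, 2436 lower), and an 8-fold threshold left 3546 (2276 and 1270). Where detection on all 3 arrays was required, 3114 probes were at least 4-fold higher and 3219 lower in aorta, against 4777 and 3710. The median difference over tested probes was 0.17 with the 75th percentile, -0.05 with quantile normalization and -0.12 with the authors' values; centring on it, an alternative added after the data were seen, gave 12353 higher and 13716 lower calls. With the replicate number as a block, 23655 probes were called. Aorta has only number 1, so the block pairs nothing between the groups compared, and Actb was the only one of the 15 genes to lose its call with it, at -0.72 (limma adjusted p = 0.0749). No difference of a named gene or probe reversed under any alternative. A slide block could not be fitted.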

Other observations

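Probes were also counted by the class their identifiers name, with counts that depended on the scaling. The authors' log2 values cover fewer probes, with 42309 tested against 44926. In counts from them, scaling and probe set cannot be told apart. Over all tested probes 31.9% were called higher and 27.1% lower in aorta (limma), with a median log2 difference of 0.17. Of 456 tested humanlincRNA probes, 178 (39.0%) were called higher and 20 (4.39%) lower, with a median of 0.64. With quantile normalization these were 105 and 49, with a median of 0.23 beside -0.05 over all tested probes, and with the authors' log2 values 73 and 48. The lower calls were 41 without wild-type replicate 1 and 12 without either Srf knockout array. Of 293 mouselincRNA probes, 87 (29.7%) were called higher and 11 (3.75%) lower, with a median of 0.52. These became 46 and 30 with quantile normalization and 36 and 27 with the authors' values, and the lower calls became 28 and 30 without wild-type replicates 1 and 2, and 7 without any single Srf knockout or Myocd array. Of 50 MM9LINCRNAEXON probes, 17 (34%) were called higher and 3 (6%) lower. The shares called higher in the last 2 classes were thus near that of all probes, while few of their probes were called lower. The ASMM10UP probes, whose identifier names no kind of RNA, gave 125 higher (31.4%) and 64 lower (16.1%) of 398. These turned round to 88 and 97 with quantile normalization and 63 and 95 with the authors' values. Over all tested probes the balance also turned round, from 14343 higher and 12185 lower to 12497 and 14065, and to 10764 and 14061. All 4 classes were dim, with median levels in wild-type cells from -3.68 to -3.09 against -1.72 for all tested probes. The control spots E1A_r60_a97 and E1A_r60_n9 had 0 of 35 spots well above background on each of the 3 arrays compared. Their log2 differences between aorta and wild-type cells were 0.64 and 0.64, near the humanlincRNA median. Another control with 0 such spots, ETG10_195139, had -0.004, with its 2 wild-type arrays 0.96 apart. ETG10_13482, ETG08_142674 and ETG02_36680, also with 0 such spots, had 0.63, 0.61 and 0.57. Controls of 2 spots were more scattered, such as DCP_1_4 at -0.87 and DCP_1_2 at 0.55. The part of signal level in these counts was not tested.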
